A study of Mus musculus with 20 samples.

Results

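The Hsp40 co-chaperone genes are the mouse protein-coding genes whose symbols begin with Dnaja, Dnajb or Dnajc and a number, without Dnaja3. By this rule 44 of the 21523 protein-coding genes placed on autosomes and the X chromosome were members, 3 of class A, 13 of class B and 28 of class C. ATF4, a transcription factor of the integrated stress response, had been mapped by CUT&Tag, in which an antibody directs a transposase to the DNA next to the protein of interest. The cells were wild-type C2C12, a line of mouse myoblasts, kept for 6 h in 100 nM thapsigargin, which stops calcium uptake into the endoplasmic reticulum (ER) and so causes ER stress, or for 6 h with DMSO, the solvent. Both groups came from the same line with no other genotype or agent, with 2 ATF4 samples each among the 20 samples of the series. Each condition is represented by 1 deposited ATF4 peak list, with 8619 peaks in thapsigargin and 803 in DMSO. The lists give positions without height, score or read depth, so no replicate error can be given, no test was run, and depth, threshold and binding cannot be told apart as sources of a longer list. Peaks do not measure expression, so the myoblast label was not checked against marker genes.

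Hsp40 proteins carry a J domain, through which they bring unfolded clients to Hsp70 chaperones and stimulate Hsp70 to hydrolyse ATP and hold the client. Class A members share the zinc-binding region of bacterial DnaJ, class B members a glycine-rich stretch without it, and class C members mainly the J domain. In the ER lumen, J-domain proteins serve the Hsp70 BiP, and several are known to be induced when unfolded proteins accumulate there. ATF4 is translated when the kinase PERK, one sensor of that state, phosphorylates the initiation factor eIF2.

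ATF4 had a peak at the end of 12 of the 44 Hsp40 genes in thapsigargin (27.3%, 95% Wilson interval 16.3% to 41.8%), and of 0 of 44 in DMSO (interval up to 8.03%). Peaks stood at the ends of 15.2% of other protein-coding genes in thapsigargin and of 1.29% in DMSO. Without receptor and unnamed gene families, the thapsigargin share of other genes was 17.3%, which lies within the members' interval. Among genes with a thapsigargin peak within 50 kb, the shares were 12 of 29 members (41.4%) and 29.5% of other genes. A peak counted as at a gene end when its centre lay within 1 kb of the first or last base of the gene, and intervals cover counting error only. The 12 genes were Dnaja1, Dnaja2, Dnajb1, Dnajb2, Dnajb4, Dnajb9, Dnajb11, Dnajc7, Dnajc10, Dnajc14, Dnajc17 and Dnajc27. With 1.29% of other genes marked in DMSO, a count of 0 among 44 is not distinguishable from that background. The thapsigargin count depends on the length of the list: among its 803 widest peaks, as many as in DMSO, 1 of 44 members had one at an end (Dnaja2, 2.27%), against 1.32% of other genes, and among the upper 50% of peaks by width 6 of 44 (13.6%), against 7.58%.

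All 12 peaks lay at the 5' side of the gene. The strand was known for 36 of the 44 members, including these 12, and in each the peak was at the end where transcription starts. The outer start is the 5' end of the gene, and some genes have further annotated starts inside it. Of these 36 members 12 (33.3%) thus had a thapsigargin peak within 1 kb of the outer start, against 14.9% of other genes with a known strand. None had a DMSO peak there, against 1.28%. Among other genes with a known strand and a thapsigargin peak at an end, the peak was on the start side in 2556 of 2683 (95.3%), so that the members' placing was that of most genes. The median distance of the peak centre from the gene end was 116 bp at the 12 members and 228 bp at other genes with a peak there.

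**Figure D1:**
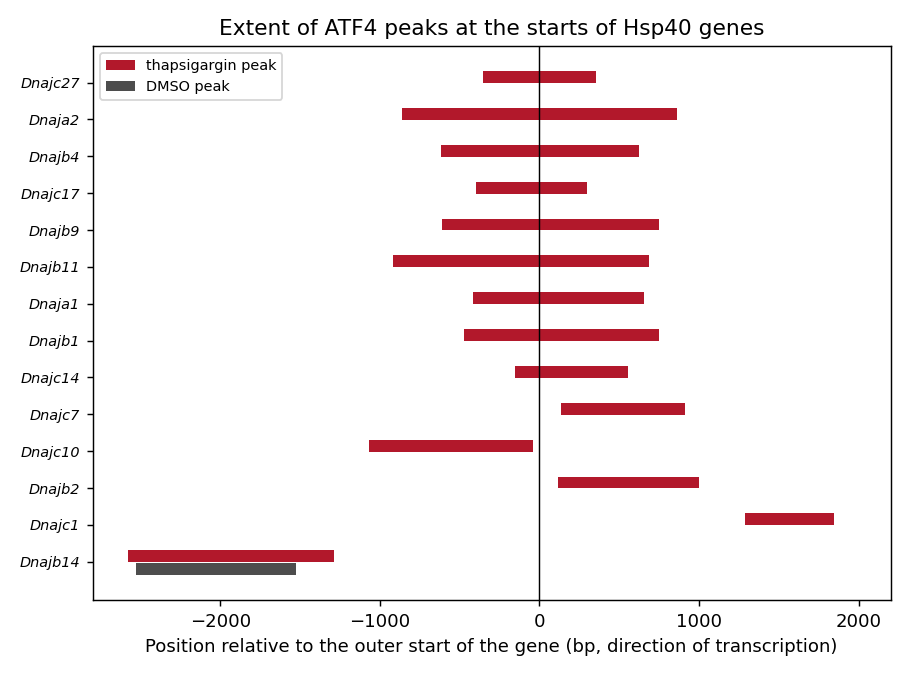
Extent of ATF4 peaks in bp relative to the outer start of each gene (its 5' end), in the direction of transcription. Shown are the 12 Hsp40 genes with a thapsigargin peak within 1 kb, and Dnajc1 and Dnajb14, the next nearest. Bars run over the peak (thapsigargin above DMSO), and Dnajb14 is the only gene shown with a DMSO peak in view, inside the thapsigargin peak.

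Promoter sequences are given for the 4 ER-resident members with a peak, whose windows lay in or partly in that peak, and for the 4 members with a motif, of which Dnajc27 alone had a peak there. They are RefSeq windows of build GRCm38.p6 from 250 bases before to 50 after an annotated start, written 5' to 3' on the gene's strand, and such windows existed for 36 members (49 windows). Searched on both strands were TGATGNAA, the core of the element shared by ATF4 and C/EBP factors, TGACGTCA (the cAMP response element, CRE), TGANTCA (AP-1), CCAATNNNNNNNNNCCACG (the ER stress element), TGACGTGG (the unfolded protein response element, UPRE) and the heat shock element, in the form GAA, TTC and GAA with 2 spacer bases between them. Capitals mark a match, without the 9 spacer bases of the ER stress element but with those of the heat shock element, and the other letters are in lower case. The first 5 windows belong to Dnajb9 (chr12:44210019-44210318, minus strand), Dnajb11 (chr16:22857595-22857894, plus strand), Dnajc10 (chr2:80315216-80315515, plus strand), Dnajc14 (chr10:128805304-128805603, plus strand) and Dnajc27 (chr12:4082324-4082623, plus strand), all with a thapsigargin peak. The last 3 belong to Dnajc3 (chr14:118937682-118937981, plus strand), Dnajc25 (chr4:59002943-59003242, plus strand) and Dnajb6 (chr5:29735648-29735947, plus strand), which had no peak there.
Dnajb9: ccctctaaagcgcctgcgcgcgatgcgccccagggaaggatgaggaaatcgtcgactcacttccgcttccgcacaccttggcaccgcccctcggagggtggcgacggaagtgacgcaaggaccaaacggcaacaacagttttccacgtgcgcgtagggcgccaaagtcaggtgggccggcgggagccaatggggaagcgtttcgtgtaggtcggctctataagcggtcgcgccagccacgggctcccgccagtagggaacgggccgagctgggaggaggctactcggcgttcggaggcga
Dnajb11: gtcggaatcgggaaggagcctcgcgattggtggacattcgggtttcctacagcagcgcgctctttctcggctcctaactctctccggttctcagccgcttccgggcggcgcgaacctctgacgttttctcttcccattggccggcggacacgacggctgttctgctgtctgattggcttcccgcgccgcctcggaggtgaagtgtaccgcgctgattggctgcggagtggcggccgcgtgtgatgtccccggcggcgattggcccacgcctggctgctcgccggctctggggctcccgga
Dnajc10: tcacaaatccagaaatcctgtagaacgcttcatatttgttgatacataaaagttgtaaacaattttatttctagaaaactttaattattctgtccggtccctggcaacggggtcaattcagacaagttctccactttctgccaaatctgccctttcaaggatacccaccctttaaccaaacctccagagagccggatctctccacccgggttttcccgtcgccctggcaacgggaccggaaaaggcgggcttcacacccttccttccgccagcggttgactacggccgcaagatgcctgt
Dnajc14: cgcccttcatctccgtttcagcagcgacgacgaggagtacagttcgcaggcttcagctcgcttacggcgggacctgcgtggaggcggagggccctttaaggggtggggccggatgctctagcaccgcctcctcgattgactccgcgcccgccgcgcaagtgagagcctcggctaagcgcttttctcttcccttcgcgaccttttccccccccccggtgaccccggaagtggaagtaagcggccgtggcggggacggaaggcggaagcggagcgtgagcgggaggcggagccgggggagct
Dnajc27: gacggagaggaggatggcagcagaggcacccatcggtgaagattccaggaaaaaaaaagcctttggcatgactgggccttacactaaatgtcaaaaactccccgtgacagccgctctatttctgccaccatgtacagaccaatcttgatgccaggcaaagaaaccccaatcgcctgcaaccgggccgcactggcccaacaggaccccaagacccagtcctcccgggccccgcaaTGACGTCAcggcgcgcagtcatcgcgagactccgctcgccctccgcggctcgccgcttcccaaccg
Dnajc3: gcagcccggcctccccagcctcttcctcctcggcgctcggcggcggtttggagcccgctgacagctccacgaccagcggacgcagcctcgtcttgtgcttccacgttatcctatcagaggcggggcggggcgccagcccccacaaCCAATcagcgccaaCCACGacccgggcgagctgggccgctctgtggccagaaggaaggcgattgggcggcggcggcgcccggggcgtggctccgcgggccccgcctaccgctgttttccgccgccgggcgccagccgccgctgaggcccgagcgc
Dnajc25: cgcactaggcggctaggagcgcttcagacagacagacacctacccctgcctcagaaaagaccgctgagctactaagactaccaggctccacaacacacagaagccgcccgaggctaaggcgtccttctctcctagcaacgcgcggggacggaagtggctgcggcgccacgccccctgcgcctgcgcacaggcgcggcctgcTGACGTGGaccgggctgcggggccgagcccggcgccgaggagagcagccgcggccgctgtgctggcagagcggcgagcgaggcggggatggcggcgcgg
Dnajb6: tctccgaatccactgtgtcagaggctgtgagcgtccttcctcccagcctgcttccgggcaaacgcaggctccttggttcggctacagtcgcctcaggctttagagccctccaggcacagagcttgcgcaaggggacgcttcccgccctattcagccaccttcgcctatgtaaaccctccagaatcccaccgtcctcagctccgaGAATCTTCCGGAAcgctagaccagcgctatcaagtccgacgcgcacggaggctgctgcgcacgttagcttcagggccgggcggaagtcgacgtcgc

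Each of these motifs stood in at most 2 of the 49 member windows. The CRE was found in 1 of 49 member windows (2.04%), that of Dnajc27, against 1.79% of the 32802 other windows. It began 16 bases before the inner start on which the Dnajc27 window was built, and was centred 7.5 bp from the centre of the thapsigargin peak. The composite core TGATGNAA was in 0 of 49 member windows and in 3.98% of the others, and TGANTCA was in 0 of 49 and 7.82%. In the 3308 windows of genes with a thapsigargin peak, the shares were 3.81% and 4.53%. The composite core was thus no more frequent at genes with a peak, so its absence says little about binding at members. The ER stress element was in 1 member window, that of Dnajc3, and in 0.116% of the others. The UPRE letters were in 1, that of Dnajc25, and in 0.674% of the others. The heat shock element was in 2 overlapping windows of Dnajb6, at a single site, and in 0.598% of the others. The windows of Dnajb9 and Dnajb11 lay wholly within their thapsigargin peaks and held none of these 6 motifs. The Dnajc10 window (64.0% in its peak) and the Dnajc14 window (52.0% in its peak) held none either. No match says only that these letters are not in these windows, since the peaks are wider than the windows.

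Among the ER-resident members, 3 of the 4 genes with a peak encode co-chaperones of BiP. Of 11 ER-resident genes 4 had a thapsigargin peak at an end (36.4%, interval 15.2% to 64.6%), against 8 of 33 members outside the ER (24.2%, interval 12.8% to 41.0%). The intervals overlap over most of their length, and both shares are above the 15.2% of other protein-coding genes. With a window of 3 kb, which takes in Dnajc1 and Dnajb14, 6 of 11 ER-resident genes counted (54.5%), beside 8 of 33 outside the ER (24.2%) and 18.7% of other genes, and none of the 11 did among the 803 widest peaks. Of the 5 members listed as having their J domain in the ER lumen 3 had a peak (60.0%, interval 23.1% to 88.2%), and of the 6 other ER members 1 (16.7%, interval 3.01% to 56.4%). The side of the J domain was not checked for Dnajc16 and Dnajc25, which were placed among the 6 and had no peak at an end. None of the 11 had a DMSO peak at an end.

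Dnajb9 encodes ERdj4, a BiP co-chaperone that binds misfolded clients and holds the stress sensor IRE1 inactive. Its thapsigargin peak (chromosome 12, 44209322 to 44210679, 1358 bp) was centred 67.5 bp inside the gene from its start, and a second peak of 1420 bp lay 7.26 kb beyond the 3' end. The nearest DMSO peak was 59.0 kb away. Dnajb11 encodes ERdj3, which binds unfolded clients in the lumen and can be secreted with them. Its peak (chromosome 16, 22856926 to 22858532) was 1607 bp wide and centred 116 bp before the start, but 34 bp from the end of the neighbour Tbccd1, so the peak can be assigned to either gene. Dnajc10 encodes ERdj5, a disulfide reductase that unlinks proteins bound for degradation. Its peak (chromosome 2, 80314379 to 80315407, 1029 bp) was centred 553 bp before the start and ended short of it. These 3 lumenal members thus carried thapsigargin peaks within 1 kb of the start, with the nearest DMSO peaks from 59.0 kb to 3143 kb away.

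The other members listed as lumenal differed. Dnajc1 encodes ERdj1, an ER membrane protein that binds ribosomes and BiP. Its thapsigargin peak (chromosome 2, 18392255 to 18392808, 554 bp) was centred 1.57 kb inside the outer start, just beyond the 1 kb window, and 298.5 bp downstream of another annotated start of the gene. Counting any annotated start, a choice made after the data were seen, therefore adds Dnajc1. Dnajc3 encodes a lumenal co-chaperone of BiP first described as an inhibitor of eIF2 kinases. It was the member farthest from any thapsigargin peak, at 1007 kb. Its promoter held the ER stress element shown above, which is a different element from the ATF4 and C/EBP core.

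Of the ER membrane members, Dnajc14, which takes part in the export of membrane receptors, had a 712 bp peak (chromosome 10, 128804748 to 128805459) centred 199.5 bp inside its outer start. The same peak lay within 1 kb of an end of Tmem198b. Dnajb12 and Dnajb14 hold their J domain on the cytosolic side and work with Hsc70 on membrane proteins. Near Dnajb14, a peak was present in both conditions upstream of its start, centred 1.94 kb away in thapsigargin (chromosome 3, 137865095 to 137866384, 1290 bp) and 2.02 kb away in DMSO (137865149 to 137866152, 1004 bp). It lay nearer to an end of H2az1, at 1182.5 bp in thapsigargin, and its centre was inside that gene in both conditions. Another thapsigargin peak, 627 bp wide, lay 2.27 kb past the 3' end of Dnajb14 and 276 bp from an end of Lamtor3. The closest peaks to Dnajb12 were 44.2 kb away in both conditions and nearer to the stress gene Ddit4. Dnajc18, Dnajc25 and Dnajc16 had their nearest thapsigargin peaks at 9.17 kb, 34.5 kb and 97.1 kb.

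By class, the shares differed in small numbers. In class A 2 of 3 genes had a thapsigargin peak at an end (66.7%, interval 20.8% to 93.9%), in class B 5 of 13 (38.5%, interval 17.7% to 64.5%) and in class C 5 of 28 (17.9%, interval 7.88% to 35.6%), against 15.2% of other protein-coding genes. The class C share was thus close to the background, and was below it with a window of 500 bp, where 3 of 28 (10.7%) compared with 12.5% of other genes. It was further above it with 5 kb (8 of 28, 28.6%, against 21.1%). Among genes of known strand the same 5 genes counted (5 of 20, 25%, against 14.9% on the start side). The 8 members left out there for want of a strand were all class C genes without a peak at an end. The place of the class C share relative to the background thus depended on the setting. The intervals of the 3 classes overlap.

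**Figure D2:**
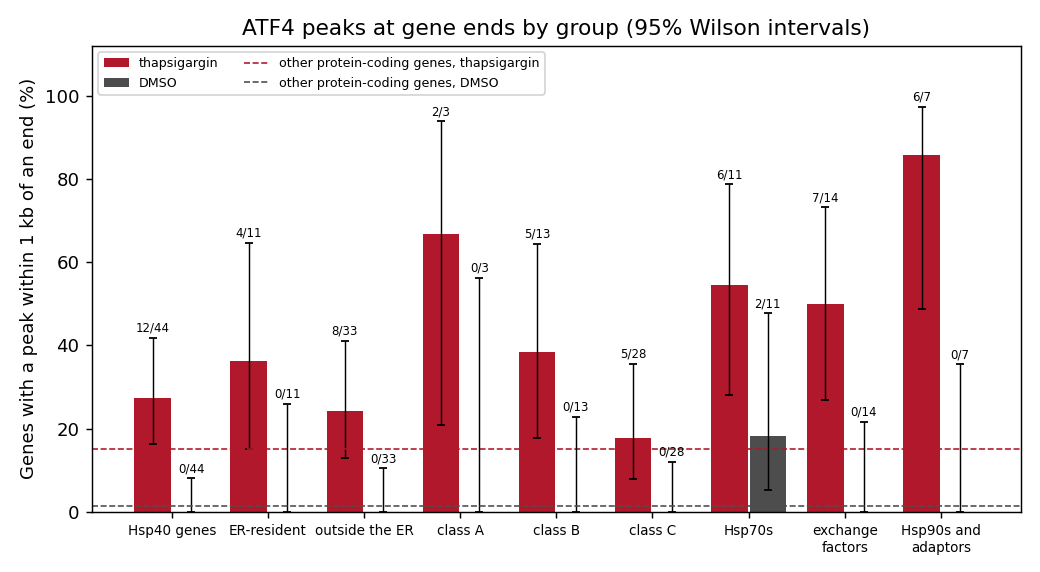
Share of genes (%) with ATF4 marked at a gene end (peak centre no more than 1 kb away), by group, with thapsigargin left of DMSO in each pair. Error bars are 95% Wilson intervals, fractions give genes with a peak over genes in the group, and dashed lines are other protein-coding genes (15.2% in thapsigargin, 1.29% in DMSO); all groups of Hsp40 genes stand at 0 in DMSO.

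The class A genes with peaks were Dnaja1 and Dnaja2, which encode the main zinc-containing co-chaperones of cytosolic Hsc70. The Dnaja2 peak (chromosome 8, 85554497 to 85556225) was centred exactly on the gene start and, at 1729 bp, was the widest at any Hsp40 gene end. The Dnaja1 peak (chromosome 4, 40722049 to 40723120, 1072 bp) was centred 116.5 bp inside the start and also lay at an end of Aptx. Dnaja4, a further co-chaperone of the class, had its nearest thapsigargin peak at 52.7 kb. Beyond its start peak, Dnaja2 had a second thapsigargin peak of 1092 bp, 4.07 kb past its 3' end.

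Among the cytosolic class B genes, Dnajb1, the classical heat-inducible Hsp40, had a 1219 bp peak (chromosome 8, 83607703 to 83608921) centred 137 bp inside the start. It had 5 thapsigargin peaks within 50 kb, more than any other member, and 3 of these were nearest to Dnajb1 itself. Dnajb4, a close relative of Dnajb1, had a 1239 bp peak (chromosome 3, 152209811 to 152211049) centred 2 bp inside the start, shared with the neighbour Fubp1. Dnajb2 encodes HSJ1, a co-chaperone that binds ubiquitin and directs clients to the proteasome. Its 885 bp peak (chromosome 1, 75236510 to 75237394) was centred 557 bp inside the outer start and 250 bp downstream of an inner one. Dnajb6, a suppressor of polyglutamine aggregation, had no peak at its ends but one of 1662 bp in its body (chromosome 5, 29771759 to 29773420), 13.9 kb from the nearer end. A second peak, 2292 bp wide, lay 28.3 kb outside Dnajb6, which was the nearest gene end to both. Dnajb3, Dnajb8 and Dnajb13 had no thapsigargin peak within 50 kb, the nearest being at 70.5 kb, 107 kb and 76.4 kb.

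In class C outside the ER, Dnajc27, which joins a Rab-like GTPase to a J domain, had a 715 bp peak (chromosome 12, 4082212 to 4082926). It was centred on the outer start and 5 bp before the nearest inner one. Dnajc7, a co-chaperone whose TPR repeats bind both Hsp70 and Hsp90, had a 779 bp peak (chromosome 11, 100619377 to 100620155) shared with Nkiras2. It was centred 526 bp inside the outer start and 139 bp before the nearest inner one. Dnajc17, a nuclear protein linked to splicing, had a 698 bp peak (chromosome 2, 119208539 to 119209236) centred 49.5 bp before the start and shared with Zfyve19. A second Dnajc17 peak of 1189 bp lay in its body near the other end, 44 bp from an end of Gm14137. These 3 class C peaks and that of Dnajc14 were the narrowest of the 12, from 698 bp to 779 bp, whereas that of Dnajc10 was 1029 bp.

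None of the 4 mitochondrial members (Dnajc11, Dnajc15, Dnajc19 and Dnajc30; interval up to 49.0%) and none of the 5 vesicle and endosome members (Dnajc5, Dnajc5b, Dnajc5g, Dnajc6 and Dnajc13; interval up to 43.4%) had a peak at an end in either condition. Dnajc11, a protein of mitochondrial membrane organisation, had a 591 bp thapsigargin peak 4.61 kb away, and Dnajc6, the clathrin-uncoating factor auxilin, one of 1671 bp 4.94 kb away that lay 41 bp from an end of Leprot. With groups of 4 and 5 genes, a share like that of all members could not be told from 0.

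**Figure D3:**
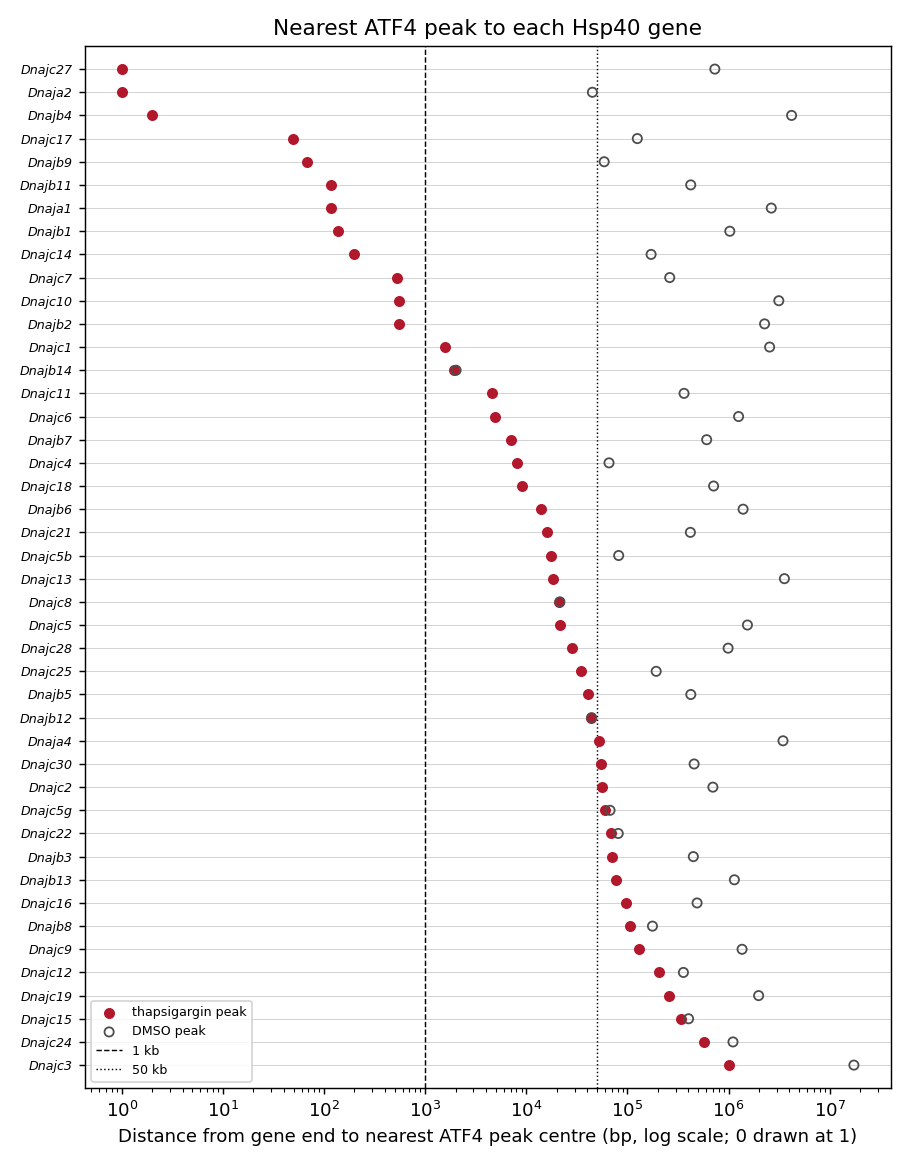
Distance in bp (log scale) from the nearer gene end to the closest ATF4 peak centre for each of the 44 Hsp40 genes, with filled points for thapsigargin and open ones for DMSO. In thapsigargin 12 genes lie left of the 1 kb line, whereas in DMSO no gene does and 4 lie left of the 50 kb line.

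The distances to the nearest peaks ran over several orders of magnitude. The median distance from a member to its nearest thapsigargin peak was 18 kb, against 49.0 kb for other protein-coding genes, and to the nearest DMSO peak 473 kb, against 837 kb. The members at either side of the 1 kb window were Dnajb2 (557 bp), Dnajc10 (553 bp) and Dnajc7 (526 bp) inside it, and Dnajc1 (1.57 kb) and Dnajb14 (1.94 kb) outside it. Of the 32 members without a thapsigargin peak at an end, 4 had one within 5 kb of an end and 15 had none within 50 kb. The median width of the 12 peaks was 1050.5 bp (698 bp to 1729 bp), and that of 2727 thapsigargin peaks at the ends of other genes 1027 bp, with quartiles of 788 bp and 1329 bp. Width depends on read depth and is not a measure of occupancy.

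Inside the genes, thapsigargin peaks over 1 kb from both ends were found in 3 of 44 members (6.82%, interval 2.35% to 18.2%), namely Dnajb6, Dnajc1 and Dnajc17, against 10.1% of other protein-coding genes. Over 3 kb from both ends Dnajb6 alone remained (2.27%), against 8.64%. In DMSO there were none (other genes 1.31%). The table of genes gives no exons, so exons and introns were not told apart. A thapsigargin peak lay in the gene or within 50 kb at 29 members (65.9%, interval 51.1% to 78.1%), against 51.3% of other genes. A DMSO peak did so at 4 members (9.09%, interval 3.59% to 21.2%), against 8.05%. The members' median length was 23.9 kb and that of other genes 17.4 kb, which widens the reach of both measures, and the part of length in them was not tested.

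Many of the peaks near Hsp40 genes were closer to another gene. The members had 49 different thapsigargin peaks within reach, 12 at their ends, 3 in their bodies and 34 outside, of which 28 were nearest to an end of another protein-coding gene. Members were the nearest gene end to some peak within 50 kb in 14 of 44 cases (31.8%, interval 20% to 46.6%), against 24.4% of other genes. In DMSO this held for 0 of 44, against 2.87%. At the ends, 6 of the 12 peaks (50%) also lay within 1 kb of an end of another gene (Tmem198b, Nkiras2, Tbccd1, Zfyve19, Fubp1 and Aptx), against 1103 of 3255 other genes with a peak (33.9%). The assignment of these 6 peaks to the Hsp40 gene cannot be told apart from an assignment to the neighbour.

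The 4 DMSO peaks near members were all found again in thapsigargin, and none was closest to an Hsp40 gene. They lay near Dnajb12, Dnajb14, Dnajc8 and Dnaja2, at 44.2 kb, 2.02 kb, 21.5 kb and 45.1 kb from the member's end. The nearest gene ends were those of Ddit4, H2az1, Sesn2 and Gpt2. Ddit4 and Sesn2 encode stress-induced regulators of mTORC1 and Gpt2 encodes a transaminase. The DMSO peaks were 727 bp, 1004 bp, 1026 bp and 678 bp wide, and the thapsigargin peaks over them 1299 bp, 1290 bp, 2047 bp and 1443 bp. At least 99% of each DMSO peak was covered.

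Other genes of the Hsp70 cycle had thapsigargin peaks at their ends in 21 of 36 cases (58.3%, interval 42.2% to 72.9%), beside 12 of 44 Hsp40 genes and 15.2% of other protein-coding genes. The list includes genes already seen to be bound, so its count is no independent evidence. It held 6 of 11 Hsp70 genes, 7 of 14 nucleotide exchange factors, which release the client from Hsp70, 2 of 4 J-domain genes under other symbols and 6 of 7 Hsp90s and adaptors. The widest of these peaks were at Hspa8, the constitutive cytosolic Hsp70 (1679 bp), Hspa14, a ribosome-associated Hsp70 (1611 bp), Hsp90b1, the Hsp90 of the ER (1589 bp), and Bag6, a chaperone of membrane proteins (1572 bp). Hspa4, an Hsp110 exchange factor (1471 bp), and St13, the Hsp70-interacting adaptor Hip (1399 bp), followed. The thapsigargin peaks of Hspa14, Hsp90b1 and St13 were centred nearer to an end of Cdnf, Ttc41 and Xpnpep3, respectively. Counting only genes whose end was the nearest to the peak left 16 of the 36 genes (44.4%). By that count 11 of 44 Hsp40 genes (25%) and 12.6% of other protein-coding genes had a peak.

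In DMSO, 2 of the 36 had a peak at an end (5.56%, interval 1.54% to 18.1%), the mitochondrial Hsp70 gene Hspa9 and Hspa14, both also bound in thapsigargin. The Hspa14 peak was also at an end of Cdnf. The peaks at Hspa5, the gene of BiP itself, had their centres outside the window in both conditions. These lay 1.19 kb before the start in thapsigargin and 1.84 kb before it in DMSO. The thapsigargin peak was 2819 bp wide and reached over the start, so it was left out of the count by its centre alone. By a wider limit than 1 kb, BiP thus had a peak near its start in both lists. Of its co-chaperones, Dnajb9, Dnajb11, Dnajc10 and, by the wider limit, Dnajc1 had one in the thapsigargin list alone, and Dnajc3 had none in either. A difference between BiP and its co-chaperones was not tested. Sec63, the J-domain protein of the ER translocon, had its nearest thapsigargin peak at 283 kb. The thapsigargin peak shared by St13 and Xpnpep3 was also the nearest to Dnajb7, at 7.12 kb.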

How the data were processed

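ATF4 CUT&Tag peak lists of C2C12 cells were analysed, 1 per treatment, each taken to stand for its 2 samples. The authors deposited chromosome, start and end of each peak, with no other value. Per the submitters' processing notes, the tools include MACS2 2.2.7.1, Bowtie2 and Trim Galore 0.6.10, on build mm10. Not given in the sources used here are the threshold, any control, the handling of replicates and the read depth, and 8 of the 10 groups were not analysed here.

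Genes came from a RefSeq table of GRCm38.p6, to which mm10 corresponds. From it 108 protein-coding genes with positions below 3 Mb were left out, as these are scaffold positions and no peak began before 3.11 Mb. Strands came from the RefSeq promoter table. The outer start of a gene is its 5' end in the gene table, and inner or other annotated starts came from the promoter table. Printed positions count from 1. Peak centres were compared with gene ends (1 kb), bodies and reach (50 kb). Shares carry 95% Wilson intervals. The members and lists were chosen with earlier results of these data known, so no test was run. Named genes were the members with a peak at an end or in the body, all ER-resident ones and those within 5 kb, and up to 6 of the widest, with any bound in DMSO, of the other Hsp70 cycle genes. Members named outside this rule, and Hspa5 and Sec63 among the other Hsp70 cycle genes, were chosen after their values were seen. Alternatives were other windows, peak edges, starts only, wider peaks, other gene backgrounds and the nearest gene only. Tools were matplotlib 3.10.9, scipy 1.17.1, pandas 2.3.3 and numpy 2.4.6 under Python 3.11.15, and gene calls were checked on simulated peaks.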

Additional observations from a re-analysis of the deposited data

How the results depend on the processing

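No paired analysis was possible because the 2 treatments have 1 peak list apiece, which also leaves no replicate to omit. Values below are percentage points, members minus other protein-coding genes. Of 108 alternative values, 97 kept their direction and moved by less than the error set by the interval. With the 803 widest thapsigargin peaks, as many as in DMSO, the difference was 0.951 for all members (12.1 with all peaks), 1.71 for those outside the ER (9.09), -1.32 for ER-resident members (21.2), -1.32 for class B (23.3) and -1.32 for class C (2.70), where none had a peak, and 1.46 for the other Hsp70 cycle genes (43.2). Class C also turned to -1.82 with a window of 500 bp, -7.58 with the upper 50% of peaks by width and -0.109 among genes with a thapsigargin peak within 50 kb, but was 7.44 at 5 kb, 10.1 on the start side and 13.7 with any annotated start. With the upper 50% by width, all members had 6.05, ER-resident ones 10.6, those outside the ER 4.54 and the other Hsp70 cycle genes 20.2. ER-resident members had 35.9 at 3 kb, 33.4 at 5 kb, 33.7 with any annotated start and 44.8 for the 5 listed as lumenal alone. Those outside the ER had 5.59 at 3 kb and 15.8 on the start side. All members had 18.4 on the start side and 19.8 with any annotated start, which leave out 8 members without a strand, all unbound and of class C. Body peaks had -6.37 over 3 kb from both ends (-3.30 over 1 kb). For all members in DMSO (-1.29) it was 0.536 at 3 kb and 0.234 at 5 kb, from the single gene Dnajb14. The CRE share (0.251) was -2.58 against promoters of genes with a thapsigargin peak. Settings with fewer peaks allow fewer calls by construction, and for the others the cause was not tested. Counting any annotated start was added after the data had been seen. The unknown read depth limits all comparisons of the lists.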
